A study of Mus musculus with 24 samples.

Results

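The receptor chains through which polarizing cytokines act on T helper cells were followed in mouse Th1 and Th2 cells treated with inhibitors of transcriptional elongation. All probes of 10 genes were taken by symbol: Il12rb1, Il12rb2, Ifngr1, Ifngr2, Il4ra, Il2ra, Il2rb, Il2rg, Il21r and Il27ra. All 10 were on the array, as 10 of 20031 named genes and 13 of 26448 named probes. The rule uses no measured value, but the genes were chosen with earlier results of these data known. All 10 passed the filter on dim signal in each comparison below.

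Cytokine receptors of this kind are built from chains that share partners. IL-12 binds a receptor of the Il12rb1 and Il12rb2 products and signals through Stat4, interferon-γ binds the Ifngr1 product and needs that of Ifngr2 to signal, and IL-4 binds the Il4ra product, which pairs with the common γ chain encoded by Il2rg and signals through Stat6. The IL-2 receptor adds an α chain (Il2ra) and a β chain (Il2rb) to that common chain and signals through Stat5, the Il21r product pairs with the same common chain, and the Il27ra product is the ligand-binding chain for IL-27. Th1 cells are classically known for the Il12rb2 chain and for loss of the Ifngr2 chain, and Il2ra, also called CD25, marks activated T cells.

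RNA was measured on 24 dual-colour Agilent arrays, 1 for each of 24 conditions, so that no condition had a replicate. The Cy3 channel held T helper cells differentiated in vitro, Th1 on 14 arrays and Th2 on 10, and the Cy5 channel held the same kind of reference on every array, naive CD4+ T cells (CD62L+ CD25- CD44lo) from lymph nodes and spleens of female C57BL/6 mice. Dyes were never swapped. Cells were kept in DMSO, the vehicle, in 50 or 500 nM JQ1, which displaces BET proteins from chromatin, or in 1 or 10 µM Flavopiridol, which blocks the kinase P-TEFb and with it elongation, and each treatment had an unstimulated and a reactivated array. Treatment lasted 6 hr, Th1 cells in DMSO or in 500 nM JQ1 had further arrays at 24 hr, and the labels of both Th2 DMSO arrays gave conflicting times. Values are log2 ratios of T helper cells over naive cells, a rise or fall is a difference between such ratios, and each array was centred on its bulk of genes by loess. Because RNA came from mixed cells, fewer cells of a type and less RNA per cell cannot be told apart. Nothing in the labels says that arrays came from separate cultures, so p-values measure only the spread between arrays.

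The 24 arrays lay on 3 slides of 8. JQ1 and its DMSO control shared a slide in Th1 cells but not in Th2 cells, and no Flavopiridol array shared a slide with its 6 hr control. Drug fits with the slide as a block, given below, therefore take the mean drug effect over doses from Th1 arrays. In those fits the Th2 drug arrays set the slide terms. The share of probes with Cy3 signal well above background was 35.4% to 41.5% on the 8 Flavopiridol arrays and 43.8% to 52% on the others. The T cell genes Cd3e, Cd3g, Cd4, Cd5 and Lck were above background on all 24 arrays. All 5 Th1 marker genes (Ifng, Tbx21 and others) were higher in Th1 than in Th2 cells, and 4 of 5 Th2 marker genes were lower, the fifth, Il1rl1, being higher (1.33, limma, Benjamini-Hochberg adjusted p = 0.0319). Of 4 B cell genes, 3 were lower in Th1 cells, and their summed Cy3 intensity ranged from 486 to 1220 in Th1 and from 993 to 2720 in Th2 cells. The 2 CD8 genes were higher in Th1 cells, with sums of 188 to 648 against 148 to 298. The NK cell genes Ncr1, Klrb1c and Klrk1 were above background on 1, 0 and 2 arrays. Of 4 macrophage and dendritic cell genes, Csf1r was above background on 24 arrays, Itgax on 9, Adgre1 on 6 and Lyz2 on 0, and Csf1r was lower in Th1 cells (-0.32, adjusted p = 0.0215), with summed intensity of 483 to 1690 in Th1 and 515 to 2910 in Th2 cells. The part of these other cells in the differences between Th1 and Th2 cells was not tested.

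Promoters are shown for 4 chains that results below turn on and that had a window: both interferon-γ receptor chains, which moved with reactivation and lineage, Il12rb2, which moved with lineage, and Il2ra, which was far above naive cells. RefSeq windows of build GRCm38.p6, from 250 bases before to 50 bases after a gene's start, matched 7 of the 10 genes, leaving Il12rb1, Il2rb and Il27ra without one. They lie at chr10:19591699-19591998 on the plus strand for Ifngr1, chr16:91546809-91547108 on the plus strand for Ifngr2, chr6:67376139-67376438 on the minus strand for Il12rb2 and chr2:11642542-11642841 on the plus strand for Il2ra. Each is printed 5′ to 3′, with matches on either strand in capitals to a STAT site (TTCNNNGAA), an AP-1 site (TGANTCA), an NFAT core (GGAAA) or a TATA box (TATAAA).
Ifngr1: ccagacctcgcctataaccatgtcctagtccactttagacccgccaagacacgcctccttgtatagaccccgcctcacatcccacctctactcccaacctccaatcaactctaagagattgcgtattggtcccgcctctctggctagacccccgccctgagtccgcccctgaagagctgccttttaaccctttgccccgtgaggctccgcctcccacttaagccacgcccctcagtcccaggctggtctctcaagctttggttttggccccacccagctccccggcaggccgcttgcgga
Ifngr2: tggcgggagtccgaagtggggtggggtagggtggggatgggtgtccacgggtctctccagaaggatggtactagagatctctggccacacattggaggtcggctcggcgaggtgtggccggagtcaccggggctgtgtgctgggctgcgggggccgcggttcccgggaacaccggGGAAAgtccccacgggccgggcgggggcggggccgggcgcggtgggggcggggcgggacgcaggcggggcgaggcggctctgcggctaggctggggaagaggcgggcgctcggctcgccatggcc
Il12rb2: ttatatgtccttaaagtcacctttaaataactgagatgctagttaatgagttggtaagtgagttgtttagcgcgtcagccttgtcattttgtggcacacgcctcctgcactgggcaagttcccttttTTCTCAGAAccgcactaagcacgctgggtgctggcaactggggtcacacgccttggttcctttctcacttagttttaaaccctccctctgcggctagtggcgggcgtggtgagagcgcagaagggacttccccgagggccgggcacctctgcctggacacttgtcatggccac
Il2ra: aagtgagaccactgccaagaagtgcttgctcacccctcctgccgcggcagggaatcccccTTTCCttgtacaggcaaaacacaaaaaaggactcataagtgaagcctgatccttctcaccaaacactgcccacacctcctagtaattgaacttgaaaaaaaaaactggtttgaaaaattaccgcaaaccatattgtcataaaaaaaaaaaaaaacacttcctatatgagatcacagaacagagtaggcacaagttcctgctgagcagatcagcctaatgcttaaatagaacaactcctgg
The Ifngr1 window held none of the 4 motifs, the Ifngr2 and Il2ra windows held 1 NFAT core each, and the Il12rb2 window held 1 STAT site. Among 32851 windows of the same length, 8.3% held the STAT site, 7.81% the AP-1 site, 61.3% the NFAT core and 13.6% the TATA box. Base composition set the windows further apart, with 31 CpG dinucleotides and 74.3% G or C for Ifngr2 against 3 CpG and 42.7% for Il2ra, where the medians of all windows were 7 CpG and 52.7%. The windows of Ifngr1 and Il12rb2 lay between, with 14 and 12 CpG.

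**Figure D1:**
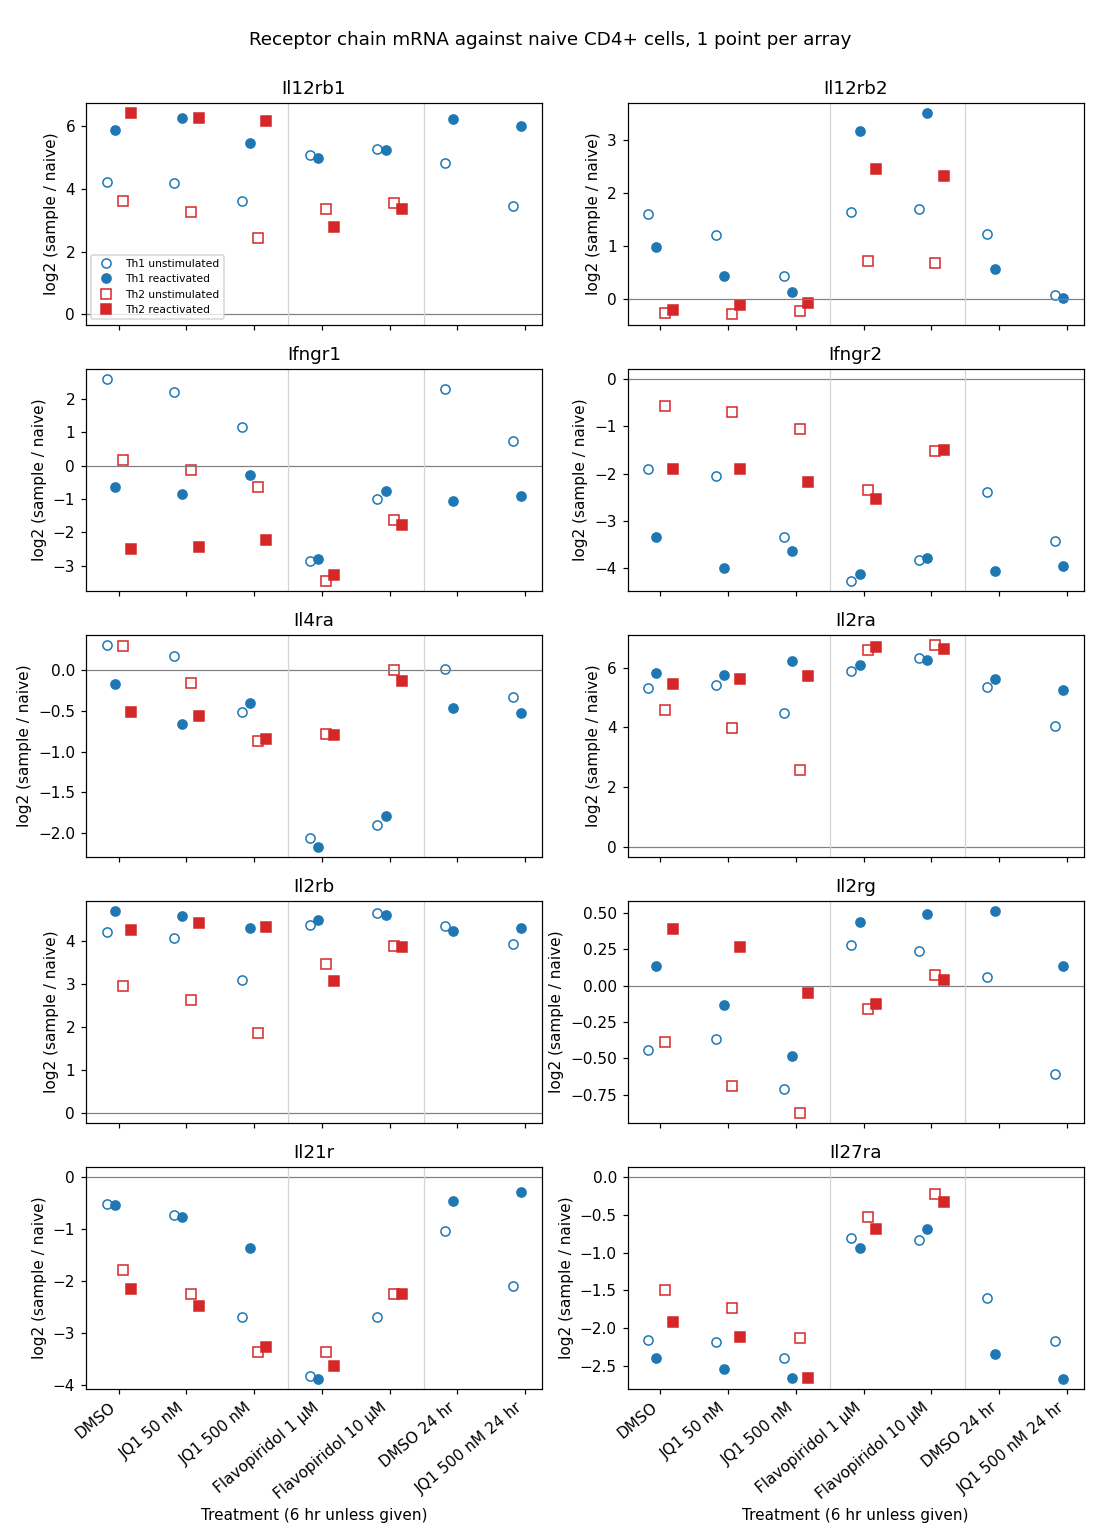
Log2 ratio of T helper over naive cells for each receptor chain on each of the 24 arrays, by treatment. Circles are Th1 and squares Th2 cells, open symbols are unstimulated and filled symbols reactivated cells, each symbol is 1 array, and Il21r has no value on the reactivated Th1 array with 10 µM Flavopiridol. Il12rb1, Il2ra and Il2rb lie above naive cells on all 24 arrays, while Ifngr2 and Il27ra lie below on all 24.

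The first comparison asked how unstimulated T helper cells in DMSO differed from naive cells, over 3 arrays. The IL-2 receptor α and β chains, Il12rb1 and Ifngr1 were higher, and Ifngr2, Il21r and Il27ra were lower. Of the 10 chains 7 were called by limma at a Benjamini-Hochberg adjusted p under 0.05, 4 higher and 3 lower, against 53.5% of the 11772 genes tested. The median over the chains was 0.53 and over all genes 0.08. The mean ratio was tested against 0, which leaves out the spread of naive RNA.

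Il2ra was 5.32 on the 6 hr Th1 array, 5.36 on the 24 hr Th1 array and 4.57 on the Th2 array, a mean of 33.9-fold over naive cells (5.09, SE 0.189, adjusted p = 5.1e-05). Il12rb1 was 4.23, 4.82 and 3.60 in the same order (18.6-fold, SE 0.239, adjusted p = 0.000193) on its brighter probe, and Il2rb 4.21, 4.34 and 2.95 (14.2-fold, SE 0.291, adjusted p = 0.00053). For all 3 genes the Th2 array was the lowest. The dimmer probe of Il12rb1 gave a smaller rise, 1.73 on the log2 scale (adjusted p = 0.000382) against 4.22. The Cy5 signal of Il2ra ranged over 2.64 (log2) across the 24 arrays, where that of the other chains ranged over 0.24 to 0.74. It was lowest, at 6.67, on the unstimulated Th2 array with 500 nM JQ1, which also had the lowest Cy3 signal of Il2ra at 9.23, and highest, at 9.31, on the unstimulated Th1 array with 1 µM Flavopiridol, where Cy3 was 15.19. Differences of Il2ra between T helper arrays are therefore given below for Cy3 alone as well, and why Cy5 moved was not tested.

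Both interferon-γ receptor chains left the naive level in opposite directions. Ifngr1 was 2.59, 2.29 and 0.16 on the 3 arrays and Ifngr2 was -1.91, -2.39 and -0.56, with means of 3.21-fold higher (SE 0.479, adjusted p = 0.0319) and 3.07-fold lower (SE 0.349, adjusted p = 0.0132). In each case the Th2 array lay closest to naive cells, and the Th1 arrays carried the call. Without the 6 hr or the 24 hr Th1 array the adjusted p rose to 0.127 or 0.155 for Ifngr1 and to 0.06 or 0.0665 for Ifngr2, and under median centring it was 0.065 for Ifngr1.

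Il27ra was lower than in naive cells at -2.15, -1.59 and -1.49 (3.35-fold, SE 0.164, adjusted p = 0.00102). Il21r was lower at -0.51, -1.04 and -1.78 (2.16-fold, SE 0.248, adjusted p = 0.0148), with an adjusted p of 0.0713 without the 24 hr Th1 array. No call was made for Il12rb2 at 0.85 (adjusted p = 0.101), Il4ra at 0.20 (adjusted p = 0.207) and Il2rg at -0.26 (adjusted p = 0.182). For Il12rb2 the Th1 arrays were 1.60 and 1.23 and the Th2 array -0.28. The dimmer of the 2 probes of Il4ra lay below naive cells, at -0.57 (adjusted p = 0.0367), where the brighter probe lay above.

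The second comparison asked what reactivation did in DMSO, over 3 pairs of unstimulated and reactivated arrays. Ifngr1 fell the most of the 10 chains, Ifngr2 and Il27ra fell as well, and Il12rb1, Il2rg and Il2ra rose. Il4ra fell on its brighter probe alone. In all 7 chains were called, 3 higher and 4 lower, where 51% of the 12539 genes tested were called. The median over the chains was -0.17 and over all genes -0.05.

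Ifngr1 went from 2.59 to -0.63 in Th1 cells at 6 hr, from 2.29 to -1.07 at 24 hr and from 0.16 to -2.49 in Th2 cells. Unstimulated cells were above the naive level in all 3 pairs and reactivated cells below it. The fall was 8.44-fold (-3.08, SE 0.169, adjusted p = 0.000177). Ifngr2 fell from -1.91 to -3.35, from -2.39 to -4.06 and from -0.56 to -1.92, a 2.81-fold fall (-1.49, SE 0.13, adjusted p = 0.000409). The reactivated Th2 array thus lay at the ratio of the unstimulated 6 hr Th1 array.

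Il12rb1 rose from 4.23 to 5.89, from 4.82 to 6.23 and from 3.60 to 6.43, by 3.91-fold (1.97, SE 0.273, adjusted p = 0.00177). Its rise was largest in Th2 cells, 2.83 against 1.66 and 1.41 in the Th1 pairs. Its partner Il12rb2 was not called (-0.41, adjusted p = 0.107), with differences of -0.62 and -0.67 in Th1 and 0.07 in Th2 cells. Among the IL-2 receptor chains, Il2rg rose in every pair (0.60, SE 0.13, adjusted p = 0.00943), Il2ra rose by 0.50, 0.24 and 0.87 (0.54, SE 0.157, adjusted p = 0.0284; Cy3 alone 1.31, adjusted p = 0.00903) and Il2rb was not called (0.56, adjusted p = 0.121). Il27ra fell by a smaller amount (-0.47, SE 0.145, adjusted p = 0.0346), and Il21r was not called (0.07, adjusted p = 0.812).

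The smaller changes were less firm than those of Ifngr1, Ifngr2 and Il12rb1. Il2ra lost its call without any array of the 6 hr Th1 pair or the Th2 pair, with adjusted p of 0.0859 to 0.0953, and Il27ra without any array of the 24 hr Th1 pair or the Th2 pair, with adjusted p of 0.0622 to 0.208. The brighter probe of Il4ra fell (-0.59) (adjusted p = 0.0117), while its dimmer probe, above background on all 16 arrays without Flavopiridol, differed by 0.04 (adjusted p = 0.836).

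**Figure D2:**
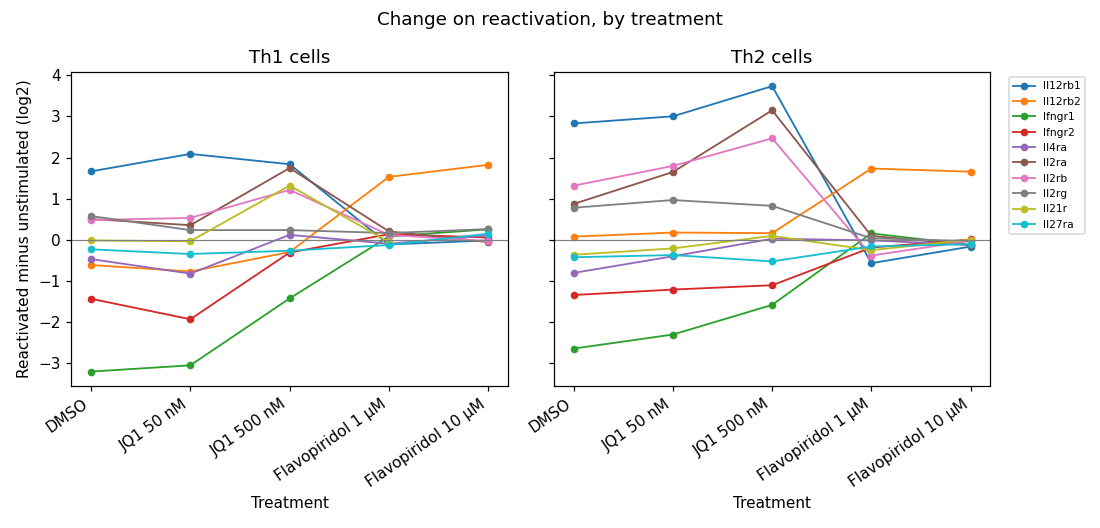
Reactivated minus unstimulated log2 ratio of each receptor chain, 1 point per pair of arrays, in DMSO, JQ1 and Flavopiridol. The fall of Ifngr1 is -3.36 to -2.66 in DMSO and -1.65 to -1.43 with 500 nM JQ1, and with Flavopiridol the 4 pairs lie between -0.13 and 0.25.

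The third comparison set Th1 against Th2 cells over 10 matched pairs of arrays, with the condition as a block. Ifngr1, Il12rb2 and Il2rb were higher in Th1 cells, and Ifngr2 was lower, so that the 2 chains of the interferon-γ receptor differed in opposite directions. Il12rb1 and Il21r were higher and Il27ra lower on average. Of the chains 7 were called, 5 higher and 2 lower in Th1 cells, against 35.6% of 13143 genes, with medians of 0.57 over the chains and -0.01 over all genes. Only the unstimulated and reactivated DMSO pairs had both cell types on 1 slide, and in these the Th1 arrays were of 6 hr and the Th2 arrays of unclear time.

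Ifngr2 was lower in Th1 cells in 10 of 10 pairs, by -2.32 to -1.34 with a median of -1.76, and its mean difference was 3.5-fold (-1.81, SE 0.118, adjusted p = 6.46e-07). No other chain was lower in Th1 cells by as much on average. On the 4 Th1 Flavopiridol arrays Cy3 was not well above background for Ifngr2, so that these pairs give bounds, and Th1 cells were at least 3.68-fold and 4.77-fold lower than Th2 cells when unstimulated with 1 and 10 µM Flavopiridol. Reactivated, they were at least 3.08-fold and 4.84-fold lower.

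Ifngr1 was higher in Th1 cells in 10 of 10 pairs, by 0.50 to 2.43 with a median of 1.69 (2.77-fold, SE 0.202, adjusted p = 0.000203). Il12rb2 was higher in 10 of 10 pairs, by 0.21 to 1.88 with a median of 0.97 (1.98-fold, SE 0.138, adjusted p = 0.000229). On the Th2 arrays with DMSO or JQ1 its brighter probe had a Cy3 signal of 6.35 to 6.59 (log2). That was well above background but dimmer than any other chain on any array. The dimmer probe of Il12rb2 was above background on 12 of 14 Th1 and 0 of 10 Th2 arrays. Il2rb was higher in 9 of 10 pairs (0.83, SE 0.146, adjusted p = 0.00105), and Il27ra lower in 10 of 10 (-0.38, SE 0.067, adjusted p = 0.00116). In the DMSO pairs on a single slide, where cell type and treatment time may differ together, Il12rb2 at 1.53 (adjusted p = 0.0276), Ifngr1 at 2.15 (adjusted p = 0.0089) and Ifngr2 at -1.39 (adjusted p = 0.0216) were called, as was Il21r at 1.44 (adjusted p = 0.0225). Il2rb at 0.85 (adjusted p = 0.162) and Il27ra at -0.57 (adjusted p = 0.209) were not.

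Calls for the remaining chains were less firm or absent. Il12rb1 was higher in 7 of 10 pairs (0.90, SE 0.284, adjusted p = 0.0276), and the 4 Flavopiridol pairs lay at 1.72 to 2.19. Without those 4 pairs its difference was 0.25 (adjusted p = 0.508), and in the DMSO pairs 0.04 (adjusted p = 0.974). Leaving out any 1 Flavopiridol pair gave adjusted p of 0.0614 to 0.0644, leaving out the unstimulated 500 nM JQ1 pair gave 0.0535, and the dimmer probe gave 0.68 (adjusted p = 0.0779). Il21r was higher in 6 of 9 pairs (0.84, SE 0.279, adjusted p = 0.0365) and lower in the 3 Flavopiridol pairs, and without any 1 of the 6 DMSO and JQ1 pairs the adjusted p was 0.0574 to 0.0771. Il4ra (-0.48, adjusted p = 0.166), Il2ra (0.30, adjusted p = 0.343) and Il2rg (0.10, adjusted p = 0.505) were not called. In Cy3 alone Il2ra was called as higher in Th1 cells (0.88, SE 0.298, adjusted p = 0.0368), the eighth chain on that scale. With the slide as a fixed block, 1 call was left, Il21r at 1.44 (adjusted p = 0.0479), since that fit learns the difference from the DMSO pairs alone. Under median centring Il12rb1 at 1.04 (adjusted p = 0.0764) and Il27ra at -0.19 (adjusted p = 0.298) lost their calls.

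Whether the Th1 to Th2 difference itself changed with reactivation was tested as an interaction, and none of the 10 chains was called. Here 0% of all genes were called by limma, and 1306 genes had an unadjusted p under 0.05.

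**Figure D3:**
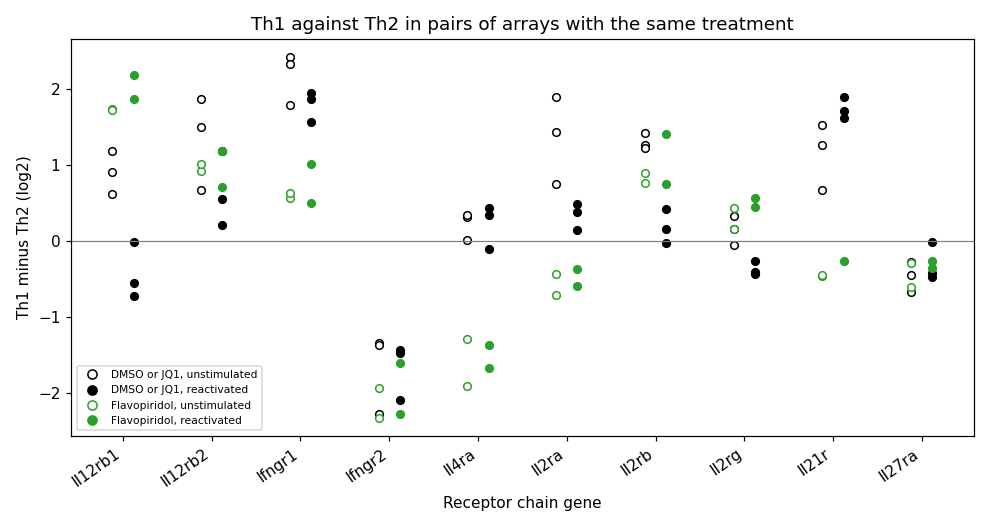
Th1 minus Th2 log2 ratio of each receptor chain in the 10 matched pairs of arrays. Black points are DMSO and JQ1 pairs, green points Flavopiridol pairs, open points unstimulated and filled points reactivated cells. Ifngr2 lies below 0 in all 10 pairs, Ifngr1 and Il12rb2 above 0 in all 10, and the 4 Flavopiridol pairs of Il12rb1 lie at 1.72 to 2.19.

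Flavopiridol was compared with DMSO at 1 and 10 µM over 4 contexts, Th1 and Th2 cells, unstimulated and reactivated. Relative to the bulk of genes, Il27ra and Il2ra were higher in all 4 contexts at both doses, and at 1 µM Ifngr1, Ifngr2 and Il21r were lower in all 4. Il12rb2 was higher and, at 1 µM, Il4ra lower on the brighter of their probes. At 10 µM 3 chains were called, all higher, where 48.9% of 12455 genes were called, and at 1 µM 7 chains, 3 higher and 4 lower, where 51.7% were. The median over the chains was -0.23 at 10 µM and -0.58 at 1 µM, against -0.22 and -0.24 over all genes.

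The size of these changes and which of them are called depend on the scaling, although no called chain changed sign with it. Under median centring without loess the median of all genes was -1.05 at 10 µM, and 6 chains were called, 0 higher and 6 lower. Shifted to the spike-in RNA the median was -1.003, with 1 chain higher and 4 lower. At 1 µM both scalings gave 0 chains higher, with 6 lower under median centring and 4 lower with spike-ins, at all-gene medians of -0.945 and -0.83. The rises below are therefore rises against the bulk of genes on the array. Shares of all genes called under both scalings are not given, so those counts are not read as results about the chains.

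Il27ra, at -2.39 to -1.49 on the DMSO arrays of 6 hr or unclear time, lay at -0.94 to -0.52 with 1 µM and at -0.83 to -0.23 with 10 µM Flavopiridol. No Flavopiridol array overlapped with any DMSO or JQ1 array for this gene. The rise was 1.25 at 1 µM (adjusted p = 8.2e-05) and 1.47 at 10 µM (SE 0.127, adjusted p = 5.6e-05). At 10 µM the slide as a block gave 1.85 (adjusted p = 0.00142) and Th1 cells alone gave 1.52 (adjusted p = 0.0089). Both values rest on the Th1 Flavopiridol arrays. On the other scales the rise was 0.17 under median centring (adjusted p = 0.546) and 0.69 with spike-ins (adjusted p = 0.0461).

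Il2ra was 5.32 and 4.57 in unstimulated Th1 and Th2 cells with DMSO, 5.88 and 6.59 with 1 µM and 6.33 and 6.76 with 10 µM Flavopiridol. Reactivated, it was 5.83 and 5.44, then 6.08 and 6.68, then 6.27 and 6.63. All 8 Flavopiridol arrays lay above all 6 DMSO arrays. The differences were 1.02 at 1 µM (adjusted p = 0.0143) and 1.21 at 10 µM (SE 0.278, adjusted p = 0.00691), and 0.06 (adjusted p = 0.768) and 0.43 (adjusted p = 0.18) at 10 µM under median centring and with spike-ins. In Cy3 alone the differences were 1.91 at 1 µM (adjusted p = 0.0077) and 1.59 at 10 µM (adjusted p = 0.0193), and in unstimulated Th2 cells 3.83 and 3.27 against ratio differences of 2.01 and 2.19. With the slide as a block the ratio difference at 10 µM was 1.09 (adjusted p = 0.544) and in Th1 cells alone 0.72 (adjusted p = 0.054). At 1 µM, leaving out the unstimulated Th2 array with Flavopiridol gave 0.85 (adjusted p = 0.0541).

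Ifngr1 fell with 1 µM Flavopiridol from 2.59 to -2.86 in unstimulated Th1 and from 0.16 to -3.44 in unstimulated Th2 cells. In reactivated cells it fell from -0.63 to -2.78 and from -2.49 to -3.28. The mean fall was 7.99-fold (-3.00, SE 0.672, adjusted p = 0.00541), and with the slide as a block -3.97 (adjusted p = 0.0843). At 10 µM the 4 values were -1.0, -1.64, -0.75 and -1.77, each above its 1 µM value, and the difference from DMSO was not called (-1.20, adjusted p = 0.17). Between the doses 1.88% of all genes and 0 chains were called, with a median over the chains of 0.35 against 0.03 over all genes.

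Ifngr2 was lower at 1 µM (-1.38, SE 0.331, adjusted p = 0.00756; slide as a block -2.11, adjusted p = 0.101) and not called at 10 µM (-0.73, adjusted p = 0.0989). In Th1 cells its Cy3 signal was not well above background at either dose. Against DMSO, unstimulated Th1 cells were at least 4.51-fold lower at 1 µM and at least 3.37-fold lower at 10 µM, and reactivated cells, already low in DMSO, at least 1.55-fold and 1.34-fold lower.

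Il21r fell from -0.51 to -3.82 in unstimulated and from -0.53 to -3.88 in reactivated Th1 cells with 1 µM Flavopiridol, and from -1.78 to -3.36 and from -2.15 to -3.62 in Th2 cells. The fall was 5.38-fold (-2.43, SE 0.384, adjusted p = 0.00128), and it was larger on both Th1 arrays than on both Th2 arrays. The difference of the drug effect between Th1 and Th2 cells, taken at 10 µM, was not called (-1.90, adjusted p = 0.174). At 10 µM Il21r was lower on the 3 arrays that gave a value (-1.07, adjusted p = 0.0731).

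Il4ra had its lowest ratios on the Th1 Flavopiridol arrays, -2.06 and -2.16 at 1 µM and -1.89 and -1.79 at 10 µM. The Th2 arrays lay at -0.78 and -0.80 at 1 µM and at 0.00 and -0.13 at 10 µM. The brighter probe was called at 1 µM (-1.43, SE 0.383, adjusted p = 0.0129) but not at 10 µM (-0.93, adjusted p = 0.0728). With the slide as a block it was called at both doses, at -2.23 (adjusted p = 0.00238) and -1.73 (adjusted p = 0.0136). That fit takes its mean effect from the Th1 arrays and does not test the Th2 contexts. In Th2 cells the brighter probe differed from DMSO at 10 µM by -0.29 unstimulated and 0.39 reactivated. The dimmer probe, above background on 4 of 8 Flavopiridol arrays, differed by 0.006 at 1 µM. In Th2 cells, where it was above background, the dimmer probe was higher than in DMSO, by 0.66 unstimulated and 0.36 reactivated at 1 µM and by 0.96 and 0.80 at 10 µM. Il12rb1 (-0.68, adjusted p = 0.397), Il2rb and Il2rg were not called at 10 µM. For Il12rb1 the contexts lay far apart, from 1.04 in unstimulated Th1 cells to -3.06 in reactivated Th2 cells at 10 µM. In reactivated Th2 cells it went from 6.43 in DMSO to 2.79 at 1 µM and 3.37 at 10 µM, and the differences were -3.17 and -2.94 on the dimmer probe.

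The brighter Il12rb2 probe rose with Flavopiridol and the dimmer did not. In reactivated cells the brighter probe went from 0.98 to 3.17 and 3.51 in Th1 and from -0.20 to 2.45 and 2.32 in Th2 cells at 1 and 10 µM, and in unstimulated Th1 cells from 1.60 to 1.64 and 1.69. It was called at 1 µM (1.47, adjusted p = 0.0176) and at 10 µM (1.52, SE 0.42, adjusted p = 0.016). On the dimmer probe Th1 cells went from 2.06 to 1.01 and 0.78 unstimulated and from 1.23 to 0.84 and 1.15 reactivated, lower in all 4 cases, and on the Th2 Flavopiridol arrays it was not above background. The fit on that probe, in which the Th2 values are at background, gave -0.26 at 1 µM (adjusted p = 0.405) and -0.28 at 10 µM (adjusted p = 0.366). Both probes are listed for the same transcript, and they differed in the sign of the change.

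The call on the brighter probe also rested on single arrays. At 10 µM it was lost without the reactivated Th1 DMSO, Th1 Flavopiridol or Th2 Flavopiridol array, at differences of 1.23, 1.30 and 1.38 (adjusted p = 0.054, 0.0612 and 0.056). It was also lost with the slide as a block (0.44, adjusted p = 0.836) and under median centring (0.65, adjusted p = 0.144). At 1 µM the same 3 kinds of array gave 1.18, 1.39 and 1.24 (adjusted p = 0.0594, 0.0549 and 0.062).

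**Figure D4:**
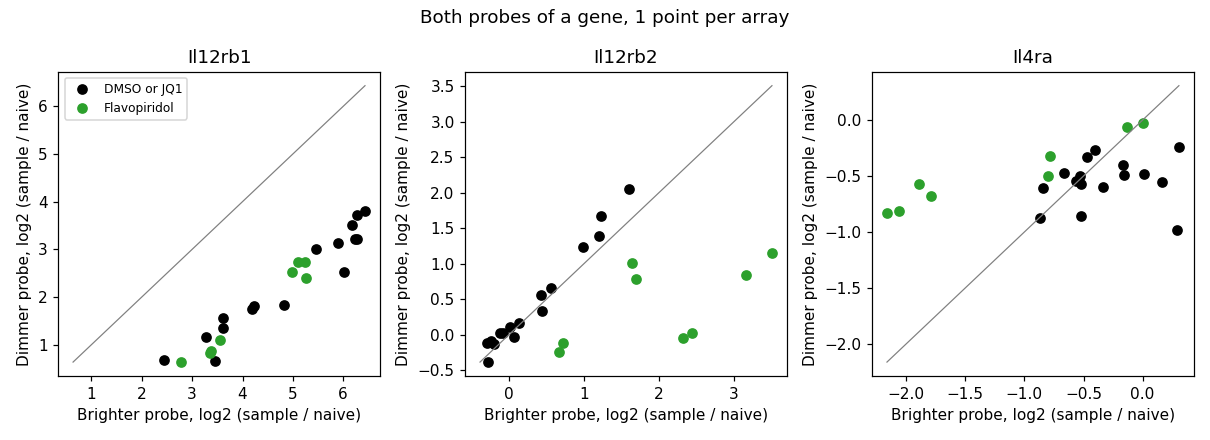
Log2 ratio of the dimmer against the brighter probe of Il12rb1, Il12rb2 and Il4ra on each array, with the diagonal marking equal values. Without Flavopiridol the 2 probes followed each other over 16 arrays with r of 0.96 for Il12rb1 and 0.99 for Il12rb2 and r of 0.14 for Il4ra, and on the 8 Flavopiridol arrays r was 0.98, 0.60 and 0.96. The dimmer Il12rb2 probe was above background on 8 of the 16 and 4 of the 8 arrays, and the dimmer Il4ra probe on 16 of 16 and 4 of 8.

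Reactivation was then compared between drug and DMSO as an interaction. With 10 µM Flavopiridol, 2 chains were called, both higher, against 15.8% of all genes, and the median over the chains was 0.49 and over all genes 0.06. The fall of Ifngr1 on reactivation, -3.22 in Th1 and -2.66 in Th2 cells with DMSO, was replaced by differences of 0.25 and -0.13, and at 1 µM by 0.08 and 0.15. Its interaction was 2.996 (SE 0.686, adjusted p = 0.0285), and 2.77 with spike-ins (adjusted p = 0.0483). Before reactivation, Flavopiridol cells already lay below the reactivated DMSO cells for this gene, apart from the Th2 array at 10 µM.

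The interaction of Il12rb2 was 2.01 (SE 0.365, adjusted p = 0.0136) on the brighter probe and 0.56 (adjusted p = 0.494) on the dimmer. Ifngr2 (1.42, adjusted p = 0.0513) and Il12rb1 (-2.34, adjusted p = 0.118) were not called, although the reactivation difference of Il12rb1, 1.66 and 2.83 in DMSO, lay between -0.57 and -0.02 in the 4 Flavopiridol pairs. Without any 1 of the 4 arrays with 10 µM Flavopiridol the adjusted p of the interaction was 0.085 to 0.128 for Ifngr1 and 0.0626 to 0.0744 for Il12rb2, and without the reactivated Th2 DMSO array it was 0.0706 for Ifngr1. A difference of the Flavopiridol effect between the cell types was called for 0.0161% of genes, 2 in number, and for 0 chains, with 1610 genes at an unadjusted p under 0.05.

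JQ1 lowered most of the chains at 500 nM, and at 50 nM no chain was called. Il21r fell the most, and Il12rb1, Il2rb, Il2rg, Ifngr2, Il27ra and the brighter probe of Il4ra fell by smaller amounts. Over 4 contexts 7 chains were called at 500 nM, all lower, against 47.6% of 12918 genes, and the median over the chains was -0.59 where that over all genes was -0.07. At 50 nM 0 chains and 0.341% of genes were called, with medians of -0.18 and -0.01. Between the doses 5 chains were called, all lower at 500 nM, against 31.3% of genes.

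Il21r in unstimulated Th1 cells was -0.51 in DMSO, -0.72 with 50 nM and -2.68 with 500 nM JQ1, and in Th2 cells -1.78, -2.25 and -3.36. In reactivated cells it was -0.53, -0.76 and -1.36, then -2.15, -2.47 and -3.27. The order by dose held in all 4 of these contexts. The fall at 500 nM was 2.68-fold (-1.425, SE 0.195, adjusted p = 0.000209), and between the doses it was -1.12 (adjusted p = 0.00194). It was -1.419 with the slide as a block (adjusted p = 0.0162) and -1.50 within the slide that held the Th1 arrays (adjusted p = 0.022). The slide-block fit takes its mean effect over doses from those same Th1 arrays, so neither of these values tests the fall in Th2 cells.

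The other falls at 500 nM were -0.62 for Il12rb1 (SE 0.146, adjusted p = 0.00547), -0.64 for Il2rb (SE 0.172, adjusted p = 0.0113), -0.46 for Il2rg (SE 0.081, adjusted p = 0.0011) and -0.47 for Il27ra (SE 0.095, adjusted p = 0.00223). Il12rb1, Il2rg, Il27ra and Ifngr2 were lower in 4 of 4 contexts and Il2rb in 3 of 4. Ifngr2 (-0.62, SE 0.209, adjusted p = 0.0311) lost its call without the unstimulated Th1 array with DMSO (-0.50, adjusted p = 0.108) or with 500 nM JQ1 (-0.34, adjusted p = 0.0651). The same held without the reactivated Th1 DMSO array (-0.60, adjusted p = 0.0737) or the unstimulated Th2 DMSO array (-0.66, adjusted p = 0.0523). The fall of Il4ra (-0.64, SE 0.159, adjusted p = 0.00738) was not seen on its dimmer probe (0.04, adjusted p = 0.821). Il12rb2 (-0.46, adjusted p = 0.0652), Il2ra (-0.55, adjusted p = 0.188; Cy3 alone -1.04, adjusted p = 0.0886) and Ifngr1 (-0.41, adjusted p = 0.219) were not called. Under median centring or with spike-ins all 10 chains were lower and called, at all-gene medians of -0.28 and -0.615. These 2 counts are given without the share of all genes called on each scale.

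Slides limit how firm these falls are. With the slide as a block, 1 call was left, that of Il21r. The other called chains kept falls of -0.33 (Il27ra) to -0.83 (Ifngr2) but with larger SE, such as 0.82 for Il12rb1. Within the single slide of the Th1 arrays Il12rb1 at -0.52 (adjusted p = 0.0497) and Il2rb at -0.76 (adjusted p = 0.0397) also passed, among 4 chains called. A fit without the context block called 0 chains at the same mean values. Counts from these fits are not set against the share of all genes that each fit called.

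On the loess scale, several chains fell more with JQ1 in unstimulated than in reactivated cells. The interaction with reactivation called 4 chains, all higher, against 10.1% of genes, with a median of 0.70 over the chains and -0.01 over all genes. Il2ra fell with 500 nM JQ1 from 5.32 to 4.47 in unstimulated Th1 and from 4.57 to 2.56 in unstimulated Th2 cells, and in reactivated cells it went from 5.83 to 6.21 and from 5.44 to 5.71. Its interaction was 1.76 (SE 0.304, adjusted p = 0.00877), and 2.47 in Cy3 alone (adjusted p = 0.00338), where it differed from DMSO by -2.16 and -2.39 in unstimulated and by 0.51 and -0.12 in reactivated Th1 and Th2 cells.

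Ifngr1 fell from 2.59 to 1.15 and from 0.16 to -0.64 in unstimulated cells and went from -0.63 to -0.28 and from -2.49 to -2.23 in reactivated cells (1.42, SE 0.22, adjusted p = 0.00555). Il2rb fell from 4.21 to 3.09 and from 2.95 to 1.86 unstimulated, and reactivated from 4.69 to 4.30 and from 4.26 to 4.32 (0.94, SE 0.173, adjusted p = 0.0114). For Il21r, whose values stand above, the interaction was 0.90 (SE 0.246, adjusted p = 0.0474). In each of these 4 genes the reactivated JQ1 arrays stood closer to DMSO than the unstimulated ones did, in Th1 and in Th2 cells.

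These interactions were on the loess scale. The reactivated Th1 array with 500 nM JQ1 had the highest spike-in signal of all arrays (0.90, log2 after loess, where DMSO arrays had -0.83 to -0.29), and with spike-ins as the scale the all-gene median of the interaction was -1.22. There the interaction of Il2ra was 0.55 (adjusted p = 0.198), of Ifngr1 0.21 (adjusted p = 0.618), of Il2rb -0.27 (adjusted p = 0.533) and of Il21r -0.31 (adjusted p = 0.468), and 3 chains were called, all lower. The share of all genes called on that scale is not given, so this count is not read as a result about the chains. Without either Th2 DMSO array Il2rb had an adjusted p of 0.0576 or 0.058. Il21r had one of 0.0554 to 0.157 without any 1 of the 8 arrays with DMSO or 500 nM JQ1 except the unstimulated Th2 array with JQ1. Between Th1 and Th2 cells the JQ1 effect was called for 0 chains and 0% of genes by limma, with 907 genes at an unadjusted p under 0.05.

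In Th1 cells JQ1 at 500 nM could be followed at 6 and 24 hr. Il12rb2 went from 1.60 to 0.44 at 6 hr and from 1.23 to 0.07 at 24 hr in unstimulated cells, and from 0.98 to 0.13 and from 0.56 to 0.02 in reactivated cells. All 4 JQ1 arrays lay below all 4 DMSO arrays. The difference was -0.93 (SE 0.133, adjusted p = 0.00194). The dimmer probe was above background on all 4 DMSO arrays and on the 2 unstimulated JQ1 arrays, where it went from 2.06 to 0.34 and from 1.67 to -0.04. Of the chains 5 were called, all lower, against 34.2% of 12543 genes, with medians of -0.58 and -0.05.

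The other 4 calls over both times, Il21r (-0.97, adjusted p = 0.0443), Il12rb1 (-0.65, adjusted p = 0.0269), Il2rg (-0.48, adjusted p = 0.0134) and Il27ra (-0.36, adjusted p = 0.0358), were lost when single arrays were left out. Il21r fell from -1.04 to -2.10 in unstimulated cells at 24 hr, but in reactivated cells at 24 hr it was -0.46 with DMSO and -0.28 with JQ1, its highest ratio on any array. For Il27ra that held for each of the 8 arrays (adjusted p = 0.0617 to 0.132). For Il21r (0.111 to 0.121) and Il12rb1 (0.0595 to 0.0732) it held for each array but the reactivated 24 hr ones, and for Il2rg (0.0571 to 0.0588) for the reactivated 6 hr and the unstimulated 24 hr arrays. Il12rb2 was called with every array left out in turn.

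Set against each other at their higher doses, Flavopiridol and JQ1 differed for 4 chains, all higher with Flavopiridol, against 56.8% of 13143 genes. Under median centring, where the all-gene median was -0.62, 6 chains were called, 3 higher and 3 lower. That count is not set against the share of all genes called on that scale. Il12rb2 differed on the brighter probe (1.98, SE 0.425, adjusted p = 0.000995) and gave on the dimmer probe 0.30 (adjusted p = 0.337). Il27ra differed by 1.94 (SE 0.115, adjusted p = 4.56e-09), having risen with 1 drug and fallen with the other relative to the bulk of genes. Il2ra differed by 1.76 (adjusted p = 0.00676; Cy3 alone 2.63, adjusted p = 0.00682) and Il2rg by 0.74 (adjusted p = 0.00285). Il2rg gave 0.31 under median centring (adjusted p = 0.445), and with the slide as a block Il2ra gave 1.43 (adjusted p = 0.164) and Il12rb2 1.30 (adjusted p = 0.221), while Il4ra was called as lower with Flavopiridol (-1.13, adjusted p = 0.0114). The median over the chains was 0.62 and over all genes -0.11. The 2 drugs differ in target, and their doses were not matched.

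The rest of the pathway was followed in 4 lists chosen with earlier results known. On reactivation in DMSO 21.9% of all genes tested rose and 29% fell, and of 17 other receptor chains tested 3 rose and 8 fell. Il1rl1, the IL-33 receptor, rose (2.44, adjusted p = 0.0142), and Ifnar1, a type I interferon receptor chain, and Il7r, the IL-7 receptor, fell (-2.05, adjusted p = 0.000452, and -1.93, adjusted p = 0.00129). Of 7 ligands 5 rose and 0 fell, with Il2 at 6.24 (adjusted p = 0.000146). Of 11 kinases and STATs 2 rose, Jak2 (2.64, adjusted p = 0.000427) and Stat5a (2.54, adjusted p = 0.000177), and 8 fell, among them Stat4 (-1.25, adjusted p = 0.00612), which carries the IL-12 signal. Of 6 feedback inhibitors Cish alone was called, higher (1.64, adjusted p = 0.00535).

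Between Th1 and Th2 cells 17% of all genes were higher and 18.5% lower in Th1 cells, and of 17 other receptor chains 6 were higher and 4 lower in Th1 cells. Both chains of the IL-18 receptor were higher, Il18r1 by 4.14 (adjusted p = 7.59e-09) and Il18rap by 2.60 (adjusted p = 1.69e-05), and Il6ra, the IL-6 receptor chain, was lower (-1.20, adjusted p = 2.23e-05). Of 11 kinases and STATs 4 were higher, with Stat4 at 1.02 (adjusted p = 0.00154), and Jak2 was lower (-0.73, adjusted p = 0.000772). The ligand Ifng was higher in Th1 cells (5.98, adjusted p = 2.15e-05) and Il4 lower (-3.59, adjusted p = 1.61e-05).

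With 10 µM Flavopiridol 15.4% of all genes rose and 33.5% fell, and of 16 other receptor chains 2 rose and 7 fell, with Tgfbr2, a TGF-β receptor, at -2.62 (adjusted p = 1.4e-05), and of 11 kinases and STATs Jak3, the kinase of the common γ chain, alone rose (1.29, adjusted p = 0.000249) while 6 fell, with Jak2 at -2.88 (adjusted p = 0.00334). Of 6 feedback inhibitors 1 rose and 3 fell, with Socs1 at -2.83 (adjusted p = 4.44e-05). With 500 nM JQ1 17.7% of all genes rose and 29.9% fell, and of 17 other receptor chains 2 rose and 9 fell, with Il1rl1 at -2.96 (adjusted p = 6.14e-06) and Il18rap at -1.96 (adjusted p = 6.94e-05). Of 7 ligands 6 fell, with Il21 at -2.07 (adjusted p = 0.00109) and Ebi3, a subunit of IL-27, at -1.97 (adjusted p = 1.47e-05). Of 11 kinases and STATs 2 rose and 6 fell, with Stat4 at -1.17 (adjusted p = 5.77e-05).

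The 10 chains differed in which genes followed them most closely over the arrays, out of 11809 genes. These correlations are descriptions over 24 arrays, or 23 for Il21r, that share their reference, scaling and treatments. Il27ra was most like Anp32e (r = 0.99), Metrn (0.99) and Cux1 (0.98), and those close to Ifngr1 included Sp140 (0.94) and Akna (0.91). Ifngr2 was most like Plcd1 (0.945), the B cell gene Cd79b (0.91) and Tbc1d4 (0.91). The presence of Cd79b, which encodes a chain of the B cell receptor, is given beside the B cell marker sums above, and its part in the Ifngr2 values was not tested.

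Il12rb1 was most like Klhdc4, Zbtb32 and Ercc1 (r = 0.96 for each), and Il2rb like Uqcrq (0.88), Lilrb4a (0.88) and Zbtb32 (0.86). Il2ra was most like Nme1 (0.895), the granzyme gene Gzmb (0.89) and Shmt2 (0.88), Il2rg like Parl (0.95), and Il21r like Stambpl1 (0.88). For the brighter probes of Il12rb2 and Il4ra the closest were Fdps (0.92) and Zfp276 (0.905). Among the chains themselves the highest correlations were those of Il12rb1 with Il2rb (r = 0.80), Il2rb with Il2rg (0.71) and Il2ra with Il2rg (0.66).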

How the data were processed

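The deposited scanner files held, per the file headers, median Cy3 and Cy5 intensity values of each spot and its background from Agilent Feature Extraction 10.7.1.1, together with the software's log10 ratio. A table of log2 ratios from the authors, whose normalization is not given in the sources used here, held columns that followed the values computed here with r of 0.981 to 0.996. The design named mean signals, and the medians held in the files were used. Background was corrected by normexp (offset 50) and arrays were normalized by loess in limma 3.58.1 (R 4.3.3). Control spots and 234 to 331 flagged spots per array were left out. A gene was represented by its brightest probe and tested where 3 or more arrays of the fit had Cy3 well above background.

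Tests were lmFit and eBayes with Benjamini-Hochberg adjustment over all genes tested, and calls were made at an adjusted p under 0.05. Drug fits held 12 arrays with the 4 contexts as a block, so that contexts stood in for replicates. The scripts were tested on simulated data. The receptor genes and the lists were chosen with earlier results of these data known. All 10 receptor genes are named, with up to 3 genes most like each, and up to 2 called genes per direction of each pathway list. Some items are not reported here. A bound replaces a fold where Cy3 was not well above background: the brighter signal over the higher of the dim probe's own and the lowest signal well above background on its array. Precision is limited by the number of arrays, 1 for each condition.

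Alternatives changed the scale (median centring without loess, spike-in shift), the background offset (10), the filter, the channel, the probe rule, the processed values (the software's log ratio or the authors' table), the slide and context blocks and the arrays included. The dimmer probes, the Th1 contexts alone and the Th1 to Th2 comparison without DMSO pairs were added after seeing the data.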

Additional observations from a re-analysis of the deposited data

Results flagged for a closer look

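Drug effects that differed between reactivated and unstimulated cells, by a test of the difference itself over both cell types, were called for 4 of the 10 receptor chains with JQ1, where 10.1% of all genes were called, and for 2 with Flavopiridol, where 15.8% were. With 500 nM JQ1 the difference was 1.424 for Ifngr1 (limma, Benjamini-Hochberg adjusted p = 0.00555), 1.761 for Il2ra (adjusted p = 0.00877), 0.943 for Il2rb (adjusted p = 0.0114) and 0.9 for Il21r (adjusted p = 0.0474), all on the log2 scale and all with a fall that was smaller or absent in reactivated cells. With 10 µM Flavopiridol it was 2.996 for Ifngr1 (adjusted p = 0.0285) and 2.011 for the brighter probe of Il12rb2 (adjusted p = 0.0136), and both calls were lost without any 1 of the 4 arrays at 10 µM (adjusted p = 0.0626 to 0.128). The test of Il12rb2 on the dimmer probe gave 0.56 (adjusted p = 0.494), and with spike-ins as the scale none of the 4 JQ1 differences was called as higher.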

How the results depend on the processing

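Of 298 counts of called receptor chains recomputed under an alternative, 249 stayed within 1.5 times the main count, and of 1118 values of single chains 901 kept direction and call, 210 lost the call and 7 changed sign. The sign changed with spike-ins for the interaction of JQ1 with reactivation, at -0.267 for Il2rb and -0.31 for Il21r, and on the dimmer probe for Il4ra on reactivation (0.038), under 1 µM Flavopiridol (0.006) and under 500 nM JQ1 (0.04), and for Il12rb2 with 10 µM (-0.282) and 1 µM Flavopiridol (-0.255). Counts moved as follows, and the cause was not tested. They are not set against the share of all genes called under each alternative. Median centring gave 6 chains for 10 µM Flavopiridol, 8 for JQ1 500 against 50 nM, 10 for JQ1 in Th1 cells at both times, 1 for Flavopiridol by reactivation and 2 for JQ1 by reactivation, and spike-ins gave 5, 4 for 1 µM Flavopiridol, 9 for the JQ1 doses and 1 for Flavopiridol by reactivation. The authors' table gave 5 chains for 10 µM Flavopiridol and 3 for the JQ1 doses. The software's log ratio gave 1 between Flavopiridol doses, 3 for JQ1 in Th1 cells, 1 for Flavopiridol by reactivation and 2 for JQ1 by reactivation. Cy3 alone gave 3 for the JQ1 doses and 2 for JQ1 in Th1 cells, no filter gave 3 for the latter, and the mean of all probes and the dimmer probes each gave 1 for Flavopiridol by reactivation. Without the context block 0 chains were called for 500 nM JQ1. The slide as a block left 1 for 500 nM JQ1, 3 for 1 µM Flavopiridol and 1 for Th1 against Th2, the Th1 arrays of 1 slide gave 4 for 500 nM JQ1 and 1 for the JQ1 doses, Th1 contexts alone gave 4 for 1 µM Flavopiridol, and the DMSO arrays alone 4 for Th1 against Th2. Leaving out 1 array in turn gave 4 to 8 chains for unstimulated against naive cells, 2 to 8 for 10 µM Flavopiridol, 2 to 6 for the JQ1 doses, 1 to 6 for JQ1 in Th1 cells, 0 to 6 for Flavopiridol by reactivation and 2 to 5 for JQ1 by reactivation. The count was 4 without the 24 hr unstimulated Th1 DMSO array for naive cells, 8 without the reactivated Th2 DMSO array for 10 µM Flavopiridol, 2 to 3 without any 50 nM array or the unstimulated Th2 500 nM array for the JQ1 doses, 1 to 2 without any array but the reactivated 24 hr ones for JQ1 in Th1 cells, and 2 without either Th2 DMSO array for JQ1 by reactivation. For Flavopiridol by reactivation it was 0 without any array at 10 µM, 1 without the reactivated Th2 and 6 without the reactivated Th1 DMSO array. No paired analysis was possible by replicate number, since each condition had 1 array, and matched conditions or contexts served as blocks instead. Signal over background limits Ifngr2 in Th1 cells with Flavopiridol, the dimmer Il12rb2 probe in Th2 cells and in reactivated Th1 cells with 500 nM JQ1, and the dimmer Il4ra probe in Th1 cells with Flavopiridol.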
